A study of Rattus norvegicus with 28 samples.

Results

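The periaqueductal grey (PAG) of adult male rats was compared between animals that had received carrageenan into a hindpaw as newborns and animals that had received saline. The arrays were chosen by their labels, 5 for PAG carrageenan and 5 for PAG saline, 10 of the 28 arrays of the series. Carrageenan is a seaweed polysaccharide that inflames tissue. Pups were injected in the left hindpaw on postnatal day 3 with 0.25% carrageenan in 0.9% saline at 1 µl/g, and the label of the saline group gives neither strength nor volume. Males were weaned on day 21, housed with cage mates of the same neonatal treatment and kept until day 59, so cage and treatment cannot be told apart. Every array paired RNA from an injected rat with RNA from an uninjected rat's PAG, 5 µg of each, so both groups are read against uninjected animals. Whether each array of a group represents a different animal is not stated in the labels. P-values therefore measure the spread between these arrays, which may be technical.

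The PAG is the midbrain grey matter around the cerebral aqueduct and a relay of descending pain control. It projects to the rostral ventromedial medulla (RVM), which sends fibres to the spinal dorsal horn. In the usual account, opioid peptides act in the PAG by reducing the release of GABA, the main inhibitory transmitter, from local neurons, which frees the output neurons that drive descending inhibition. Neurotensin, substance P, serotonin, noradrenaline and glutamate receptors are known to act in the same circuit.

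The array carried 228 features (printed oligonucleotide probes), of which 202 had a gene symbol, for 156 genes in all. Each value was read as a log2 ratio of injected over uninjected, so that 1 is a 2-fold higher signal in the injected animal. This direction was assumed, and the table does not state it. The injected RNA carried the same dye on every array, so the direction is the same on all of them. That does not show which RNA is the numerator, and were it the reverse, every sign below would change. Since dyes were never swapped, a dye bias of a feature enters both groups alike. In bulk tissue, fewer cells of a type and less RNA per cell cannot be told apart. A ratio gives no level, so the labelled region could not be checked against markers. Of 27 genes listed as markers of neurons, glia and neighbouring nuclei, 5 were on the array (Gad1, Gad2, Slc6a4, Htr1a and Slc6a2).

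More features gave a ratio in the carrageenan arrays than in the saline arrays. Exact zeros were taken as not measured, and they made up 34.7% of the carrageenan values and 64.6% of the saline values. Carrageenan arrays 1 to 5 had a ratio for 181, 157, 151, 169 and 86 features, and saline arrays 1 to 5 for 92, 90, 94, 95 and 33. Only carrageenan array 5 lay within the range of the saline arrays. The means were 148.8 ± 36.9 and 80.8 ± 26.8 features (SD, n = 5 each), a difference of 68 (exact two-sided permutation p = 0.0397, against a smallest possible 0.00794; 0.0397 after adjustment over 2 tests on whole arrays). How a spot came to have no ratio is not stated in these sources, so a feature with a ratio in carrageenan alone may differ in signal, hybridisation or filtering.

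As a result the 228 features fell into unequal classes. A ratio on at least 3 arrays of each group was found for 78 features of 58 genes. Another 77 features of 60 genes had at least 3 carrageenan arrays but at most 2 saline arrays, and 36 of them had no saline array at all. The reverse held for 2 features, Hrh4 feature 96 and Il6 feature 134. The remaining 71 had fewer than 3 arrays in both groups, 15 of them never a ratio in the PAG. Of the 136 features that any saline array measured, 132 were also measured on some carrageenan array. Tested feature by feature with Fisher's exact test over arrays with and without a ratio, 0 of 228 (0%) passed Benjamini-Hochberg adjustment. The smallest adjusted p was 0.362, and 22 features had an unadjusted p under 0.05. The smallest p this test can give is 0.00794, for 5 arrays against 0, which 5 features reached. A feature could therefore not pass adjustment over 228 on its own, so the 0 calls do not show equal measurement.

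**Figure D1:**
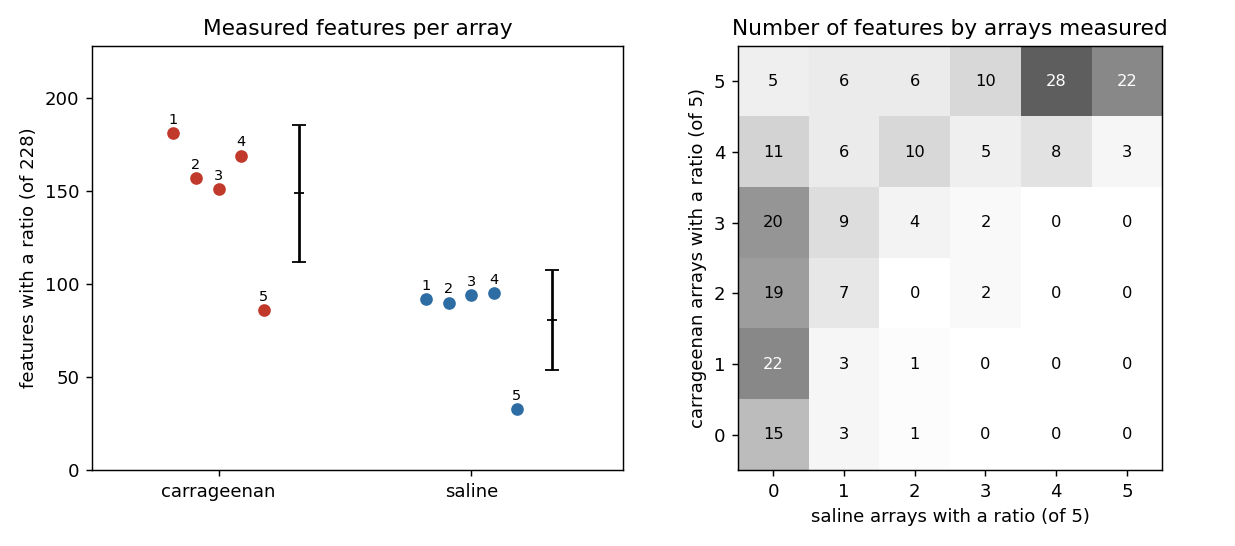
Left, features with a ratio on each PAG array (points, numbered by array; bars, mean ± SD of 5 arrays). Right, number of features by how many carrageenan arrays (vertical) and saline arrays (horizontal) gave a ratio: 22 features were measured on all 10 arrays and 15 on none.

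Correlations between arrays were low to moderate in both groups. Across shared features, Pearson's r between pairs of carrageenan arrays ran from 0.32 to 0.66 (median 0.40, 10 pairs), between saline arrays from -0.08 to 0.71 (median 0.28, 10 pairs) and between the groups from -0.13 to 0.54 (median 0.25, 25 pairs). These are descriptions across features, which are not independent. Saline arrays 3 and 4 stood apart: they shared 90 of their 94 and 95 measured features and had the highest correlation of any PAG pair. Saline array 5, with 33 features, was the sparsest.

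Ratios spread more widely after carrageenan. Over the 22 features measured on all arrays, the SD within an array was 0.76, 2.14, 1.56, 0.98 and 1.38 in carrageenan and 0.75, 1.21, 0.33, 0.52 and 0.52 in saline. The means were 1.37 ± 0.54 and 0.67 ± 0.34 (SD, n = 5 each; exact permutation p = 0.0317, adjusted 0.0397). Grik3 feature 88, the most extreme of the 22, carried much of that gap: without it the difference of 0.70 became 0.33, with p = 0.0397 by the same exact permutation. Leaving out carrageenan array 2 gave 0.50, the lowest of the values with 1 array left out. The exact permutation p then exceeded 0.05, as it did without carrageenan array 3 or 5 or saline array 1, 3, 4 or 5. Across the 78 comparable features, the SD among carrageenan arrays was the larger in 50, with median SDs of 0.59 and 0.33.

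No feature separated carrageenan from saline after adjustment. limma's moderated test called 0 of 78 features (0%), with a smallest adjusted p of 0.333 shared by 4 features. Permuting the group labels within single features gave 0 calls (smallest adjusted p = 0.265). That procedure cannot give a p under 0.00794, even with 5 arrays against 5. A feature could therefore not pass adjustment over 78 on its own, so its 0 calls add nothing to limma's result. At an unadjusted limma p under 0.05 there were 10 features (12.8%), 7 higher and 3 lower in carrageenan. In all, 46 features had the higher mean in carrageenan and 32 the lower, with a median difference of 0.14. That median ran from 0.056 (without saline array 4) to 0.173 (without saline array 2) with 1 array left out, and was 0.057 without carrageenan array 5. The median 95% interval of a difference was 1.54 wide on the log2 scale. With median centring or quantile normalization of the arrays, 44 were higher and 34 lower. Groups did not overlap in 3 features (3.85%), all with carrageenan above saline (3.85%) and none below (0%).

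**Figure D2:**
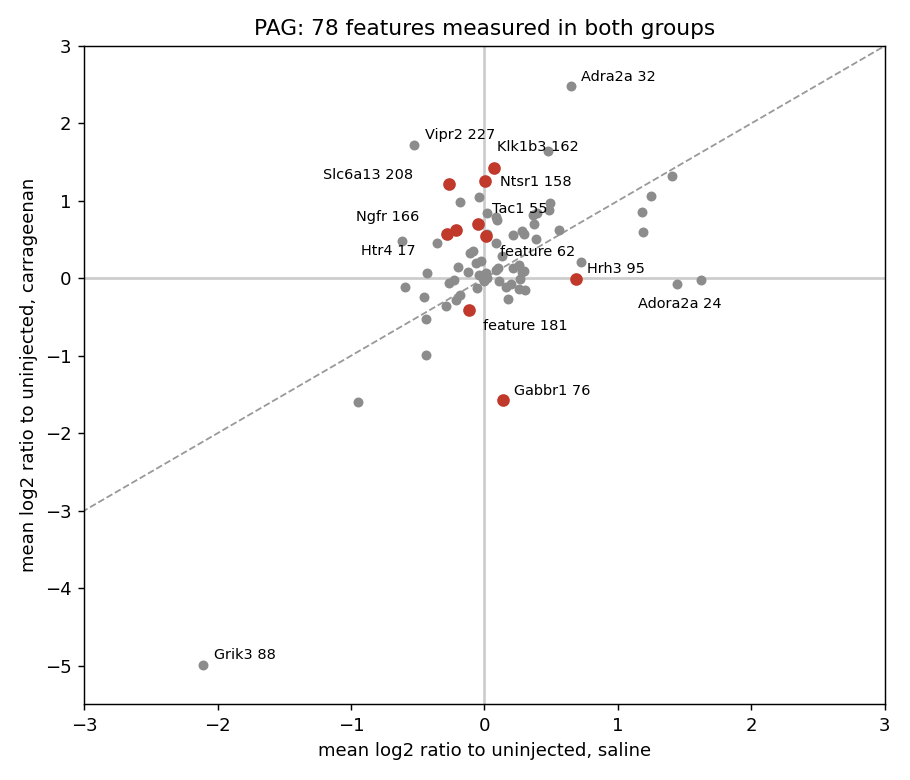
Mean log2 ratio to uninjected in carrageenan (vertical) against saline (horizontal) for 78 features, 1 point each; red points are the 10 with an unadjusted limma p under 0.05, and the dashed line marks equal means. Gabbr1 76 lies far below the line and Slc6a13 208, Klk1b3 162 and Ntsr1 158 above it, and Grik3 88 is low in both groups.

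Among genes of GABA signalling, the GABA-B receptor subunit Gabbr1 and the GABA transporter Slc6a13 had the smallest p-values of the 78, in opposite directions. Gabbr1 feature 76 read -0.70, -2.19, -2.58, -1.61 and -0.79 on carrageenan arrays 1 to 5 and 0.25, -1.24, 0.35, 1.26 and 0.074 on saline arrays 1 to 5. All carrageenan arrays were below 0 and 4 of 5 saline arrays above it, but saline array 2 lay inside the carrageenan range. The means were -1.57 ± 0.83 and 0.14 ± 0.90 (SD, n = 5 each), a difference of -1.71 (95% interval -2.87 to -0.56, limma adjusted p = 0.333). The array holds 8 features for Gabbr1, and they disagreed. Feature 36 differed by -0.07 and feature 37 by 0.45. Features 35 and 38, measured mainly in carrageenan, averaged 0.94 ± 0.30 and 1.13 ± 0.63 there (SD, n = 4 each). Of the 3 features with a ratio on only 1 or 2 carrageenan arrays and on no saline array, feature 34 read 1.69, feature 75 read -1.53 and feature 220 read -0.089 and -1.52. Which transcripts the features detect is not stated in these sources.

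Slc6a13, which encodes a GABA transporter known mainly from the meninges and the vessel wall, was the other way round. Feature 208 read 1.01, 1.93, 0.29 and 1.61 on carrageenan arrays 1 to 4 and -0.49, -0.036 and -0.26 on saline arrays 1, 3 and 4, with no ratio on the rest. The groups did not overlap. The difference was 1.47 (95% interval 0.49 to 2.46, limma adjusted p = 0.333), and it lay between 1.24 and 1.78 when any 1 of the 4 carrageenan arrays was left out. With 1 of its 3 saline arrays left out it could not enter the test. When all 6 groups of the series shared 1 estimate of the spread, it was the only feature called (limma adjusted p = 0.0442).

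The other GABA genes gave little separation. Of 11 GABA and glycine features with both groups measured, 3 were higher and 8 lower in carrageenan, with a median difference of -0.09 against 0.14 over all 78 (5 and 6 after quantile normalization). Gabrq feature 59, for the theta subunit of the GABA-A receptor, differed by 0.25 with a limma adjusted p of 0.432. Both Gabre features, for the epsilon subunit, were lower in carrageenan, by 0.52 and 0.33, but saline array 2 alone read 5.40 on feature 74 and its removal turned that difference to 1.08. Of the 8 GABA features measured mainly in carrageenan, 6 had a mean ratio below 0, against 41 of all 77 features of that class. Gabra3 feature 66, for the alpha-3 subunit, read -1.09, -1.79, -2.34, -2.28 and -5.21, and no saline array measured it. Its mean of -2.54 ± 1.57 (SD, n = 5) had a limma adjusted p of 0.136 against 0. Gabra6 feature 69, also without any saline array, ran from -5.92 to -0.12.

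Opioid genes contained the 1 feature that passed a test against uninjected animals. Oprd1, the delta opioid receptor, was measured by feature 54 on every carrageenan array and on no saline array, at -3.18, -2.68, -2.29, -1.53 and -1.92. All 5 values were below 0, and the mean was -2.32 ± 0.64 (SD, n = 5; 95% interval -3.02 to -1.62). limma on the carrageenan arrays alone gave an adjusted p of 0.0379, the only call among 155 features (0.645%); 32 features had an unadjusted p under 0.05, 14 above and 18 below 0. The ratio of Oprd1 after carrageenan was thus below 0. Because dyes were never swapped, a dye bias of this feature and a difference from uninjected animals cannot be told apart, and carrageenan could not be compared with saline. The call ended when any 1 carrageenan array was left out, with smallest adjusted p-values from 0.055 to 0.194, and under quantile normalization (0.0803). In the RVM the same feature was measured on 1 of 5 carrageenan arrays, at 0.28, and on 3 of 4 saline arrays, at -0.60, -2.80 and -2.93. In the lumbar dorsal horn after carrageenan it read -2.35 and -2.21 on 2 of 5 left-side arrays and 3.04 on 1 of 4 right-side arrays. Low ratios of this feature were therefore also seen after saline and in other regions.

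No feature of the opioid peptide precursors was among the 10 with a small unadjusted p. Of 5 opioid features with both groups measured, all of them precursors, 4 were higher and 1 lower in carrageenan, with a median difference of 0.55 (3 and 2 after quantile normalization). Pdyn, the dynorphin precursor, read 1.19, 0.88, 0.22 and 1.6 on carrageenan arrays 1 to 4 and 0.63, 0.36, 0.55, 0.73 and 0.17 on the 5 saline arrays. Every measured value of both groups was above 0. A dye bias of this feature and a difference from uninjected animals cannot be told apart here. The ranges of the groups overlapped (difference 0.49, limma adjusted p = 0.432; -0.33 after quantile normalization). Pomc, the precursor of beta-endorphin, differed by 0.55 and 1.09 in its 2 comparable features. Penk, the enkephalin precursor, had features that disagreed: feature 194 differed by 0.81 and feature 196 by -0.07. The former was 0.25 without saline array 2 and 0.29 without carrageenan array 1. Penk feature 197 read -1.95, -0.72 and -1.01 on carrageenan arrays 1 to 3 but 0.98 and 1.39 on saline arrays 3 and 4, too few saline arrays for the main test. It was 1 of 9 features with non-overlapping groups among the 22 that a minimum of 2 measured arrays per group would add, and saline arrays 3 and 4 are the pair that stood apart. In that wider test its difference of -2.41 had the smallest p of 100 features (limma adjusted p = 0.257).

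**Figure D3:**
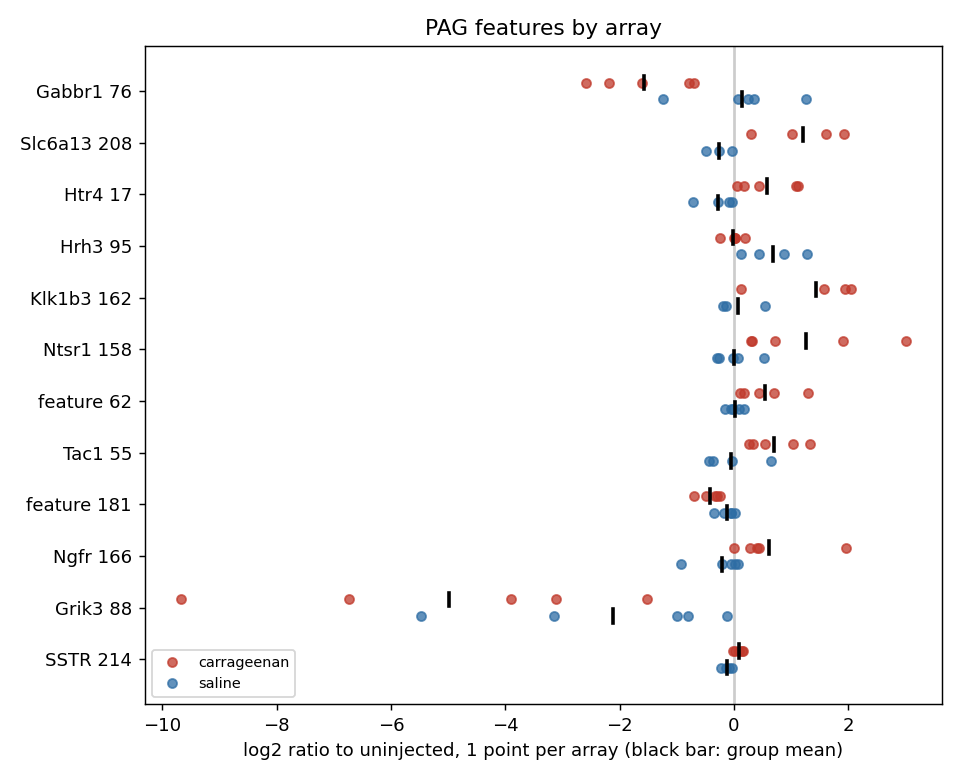
Log2 ratio to uninjected for 12 features, 1 point per array, carrageenan in red and saline in blue, with black bars at group means. The 10 features with an unadjusted limma p under 0.05 are shown with Grik3 88 and SSTR 214; only Slc6a13 208, Htr4 17 and SSTR 214 have groups that do not overlap.

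Tachykinin and neurotensin genes were mostly higher in carrageenan without passing adjustment, as were 46 of all 78 comparable features, whose median difference was 0.14. Tac1 encodes the precursor of substance P, a peptide of nociceptive neurons. Its feature 55 read 0.33, 1.03, 0.54, 1.32 and 0.27 on carrageenan arrays and -0.44, 0.65, -0.036 and -0.37 on saline arrays 1 to 4. All carrageenan values were above 0 and above 3 of the 4 saline values (difference 0.75, 95% interval 0.05 to 1.45, limma adjusted p = 0.381). Tac1 feature 79 differed by 0.34 and feature 28 was measured on 1 saline array. Tacr2, a neurokinin receptor, differed by 1.09, with carrageenan array 4 at 3.71 and the other 4 between 0.14 and 0.61. Of 4 tachykinin features, 3 were higher and 1 lower, with a median difference of 0.54.

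Ntsr1, the high-affinity neurotensin receptor, read 0.32, 0.72, 0.31, 1.91 and 3.02 on carrageenan arrays and -0.30, 0.53, -0.26, -0.014 and 0.067 on saline arrays. Only saline array 2 reached the carrageenan range. The difference was 1.25 (95% interval 0.09 to 2.41, limma adjusted p = 0.381), and carrageenan arrays 4 and 5 held its highest values. Feature 184 of Nts, the neurotensin precursor, was above 0 on all 5 arrays of both groups, with means of 0.57 ± 0.30 and 0.29 ± 0.29 (SD, n = 5 each). All 3 comparable features of the neurotensin and cholecystokinin genes had the higher mean in carrageenan (median difference 0.32), and 2 of 3 did after quantile normalization. Nts feature 183 read 0.21, -0.33 and -0.38 on carrageenan arrays 1 to 3 and -0.30 on saline array 3, and feature 182 had a single ratio, -0.16 on saline array 1. Cckbr, a cholecystokinin receptor, ran from -1.51 to 2.01 in carrageenan, and its difference of 0.32 became -0.14 without carrageenan array 1.

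Other peptide genes followed no common direction, with 5 features higher and 2 lower and a median difference of 0.06 (3 and 4 after quantile normalization). Klk1b3, a kallikrein that processes peptide precursors, read 0.13, 1.58, 1.95 and 2.06 on carrageenan arrays 1 to 4 and 0.54, -0.14 and -0.20 on saline arrays 2 to 4. Carrageenan array 1 was inside the saline range (difference 1.36, limma adjusted p = 0.381). Vipr2, a receptor for vasoactive intestinal peptide, split the carrageenan group, with arrays 4 and 5 at 4.57 and 5.26 and the other 3 between -0.57 and -0.16. Its difference of 2.25 was the largest positive one of the 78, with a limma adjusted p of 0.432. Somatostatin (Sst) differed by 0.27 and its receptor Sstr2 by 0.06 on feature 201 and 0.03 on feature 213. Feature 201 read 1.36 and 1.47 on carrageenan arrays 4 and 5 and 1.85 on saline array 1, against -0.14 to 0.16 on the other arrays, and its difference became -0.95 after quantile normalization. The feature annotated SSTR, number 214, had non-overlapping groups at a small distance, -0.01 to 0.15 in carrageenan and -0.22 to -0.03 in saline.

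For serotonin, Htr4, a receptor that stimulates cyclic AMP formation, had non-overlapping groups. Feature 17 read 1.08, 0.062, 0.18, 1.12 and 0.44 on carrageenan arrays and -0.03, -0.27, -0.092 and -0.72 on saline arrays 1 to 4. Every carrageenan value was above 0 and every saline value below it. The difference was 0.85 (95% interval 0.22 to 1.49, limma adjusted p = 0.333) and stayed between 0.71 and 0.98 with any 1 array left out. Htr2c differed by 0.83 and Htr5b by 1.16, both with limma adjusted p-values of 0.432 and overlapping groups. Htr2a and Htr5a, measured on all 10 arrays, differed by -0.01 and -0.03. Of 6 serotonin features 4 were higher and 2 lower, with a median of 0.61 (3 and 3 after quantile normalization).

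Histamine and adenosine genes had 1 feature higher and 2 lower, with a median difference of -0.69. The histamine receptor Hrh3, an autoreceptor that limits histamine release, was near 0 after carrageenan and above 0 after saline on feature 95. It read 0.19, -0.002, 0.012, -0.25 and 0.015 on carrageenan arrays and 0.13, 0.45, 0.89 and 1.28 on saline arrays 1 to 4. Carrageenan array 1 exceeded saline array 1, and the difference was -0.69 (95% interval -1.23 to -0.16, limma adjusted p = 0.333). Hrh3 feature 9 went the other way on its only PAG ratios, 0.74 on carrageenan array 2 and -4.87 on saline array 2. Adora2a, an adenosine receptor, had features in opposite directions, -1.52 for feature 24 and 0.46 for feature 23, and the latter rested on carrageenan array 5 at 3.90. Adora3 feature 26, for another adenosine receptor, was below 0 on all 5 carrageenan arrays (-1.77 ± 1.19, SD), and its 2 saline values were -4.73 and -0.40.

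Noradrenergic genes were measured by 4 comparable features, 3 higher and 1 lower, with a median difference of 0.55. Adra2a, the alpha-2A adrenoceptor through which noradrenaline inhibits release, read 2.65, 1.26, 5.35 and 0.67 on feature 32 in carrageenan arrays 1 to 4 and 1.57, 1.14, -0.081 and -0.04 in saline arrays 1 to 4. These ranges overlapped, the difference of 1.83 had a limma adjusted p of 0.432, and feature 33 of the same gene differed by -0.19. Without carrageenan array 3 the difference of feature 32 was 0.88. Feature 27 read -1.06, -2.63 and -1.93 on carrageenan arrays 1, 3 and 4 and had no saline array. Slc6a2, the noradrenaline transporter, averaged -1.38 ± 1.04 (SD, n = 5) on feature 203 in carrageenan, and its 1 saline value was -2.6. Feature 204 of the gene read -1.03, 0.33, -0.013 and 1.88 on carrageenan arrays 1 to 4, with a mean of 0.29, and had no saline array.

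Among glutamate receptor genes, Grik3 feature 88 had the lowest mean of the 78 comparable features in both groups. Grik3, a kainate receptor subunit, read -3.12, -9.67, -6.73, -1.53 and -3.90 on it in carrageenan and -3.15, -5.48, -1.0, -0.11 and -0.80 in saline. All 10 values were below 0, and the carrageenan mean of -4.99 ± 3.23 differed by -2.88 from the saline mean of -2.11 ± 2.2 (SD, n = 5 each; 95% interval -6.52 to 0.76, limma adjusted p = 0.432). A second feature, 89, read -3.62, -5.04, -2.43 and -1.40 on carrageenan arrays 1, 2, 4 and 5 and -0.92 and -0.042 on saline arrays 1 and 2. Both features thus pointed the same way. The difference of feature 88 did not pass adjustment, and feature 89 had too few saline arrays for the main test. With a minimum of 2 measured arrays per group, feature 89 differed by -2.64 (limma adjusted p = 0.366).

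Subunits of the NMDA receptor, another glutamate-gated channel, did not share a direction. Grin2d feature 167 lay between -1.79 and -0.56 in carrageenan and between -0.68 and 0.051 in saline (difference -0.56, limma adjusted p = 0.381; 0.036 after quantile normalization), whereas feature 171 of the gene differed by 0.05. Grin2b feature 169 was below 0 on all 10 arrays, with means of -0.25 ± 0.16 and -0.45 ± 0.20 (SD, n = 5 each). It was higher after carrageenan by 0.20 on the log2 scale. Grin3b feature 172 had means of 0.46 ± 1.27 in carrageenan and 0.09 ± 0.30 in saline (SD, n = 4 each). Grin2c feature 170 was below 0 on all 5 carrageenan arrays, from -2.67 to -0.59, and on both saline arrays that measured it. Of 10 ionotropic glutamate features measured mainly in carrageenan, 8 had a mean ratio below 0, against 41 of the 77 features of that class. Of 7 measured in both groups, 4 were higher and 3 lower in carrageenan, with a median of 0.05 (5 and 2 after quantile normalization). Metabotropic glutamate receptors and glutamate transporters had 1 higher and 4 lower, with a median of -0.15 (3 and 2, with a median of 0.024, after quantile normalization).

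**Figure D4:**
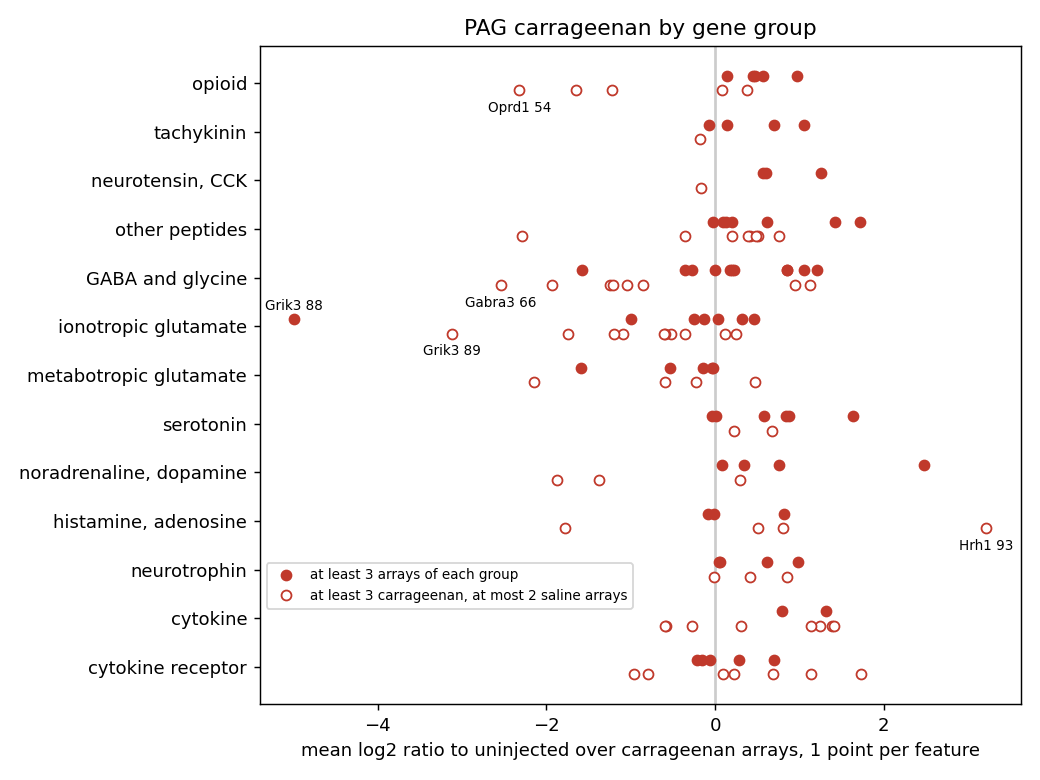
Mean log2 ratio to uninjected over the carrageenan arrays, 1 point per feature, by gene group; filled points also had at least 3 saline arrays and open points at most 2. Open points lie mostly below 0 in several groups, among them GABA (6 of 8), ionotropic glutamate (8 of 10), metabotropic glutamate (3 of 4) and opioid (3 of 5). In others they lie mostly above it, among them other peptides (2 of 8 below 0) and cytokines (3 of 8 below 0). Over all 77 features with at least 3 carrageenan and at most 2 saline arrays, 41 had a mean below 0. Gabra3 66 is at -2.54 and Grik3 89 at -3.12.

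All 4 comparable neurotrophin features were higher in carrageenan, with a median difference of 0.67 (3 of 4 after quantile normalization), and none passed adjustment. Over all 78 comparable features, 46 were higher, with a median difference of 0.14. Ngfr, the low-affinity neurotrophin receptor, read 0.28, 0.45, 0.40, 1.97 and 0.001 on carrageenan arrays and 0.013, 0.077, -0.20, -0.93 and -0.042 on saline arrays. Both groups had an extreme array numbered 4, high in carrageenan and low in saline (difference 0.84, limma adjusted p = 0.381). Ntf3, or neurotrophin-3, differed by 1.17, with carrageenan array 5 at 3.54 and the other 4 between 0.12 and 0.62. Ntf4 differed by 0.50 with overlapping groups.

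Cytokine genes were seldom measured after saline. Of 21 cytokine features 2 were comparable (1 higher, 1 lower, both higher after quantile normalization). Another 8 (38.1%) were measured mainly in carrageenan and 10 had under 3 arrays in both groups. Over all 228 features, 78 were comparable, 77 (33.8%) were measured mainly in carrageenan and 71 had under 3 arrays in both groups. Il1b, the inflammatory cytokine interleukin-1 beta, read 0.18, 0.43, 0.42, 3.08 and -0.12 in carrageenan and 0.54, -0.017 and -0.26 on saline arrays 1, 3 and 4, so that array 4 alone was high. Il13 was above 0 on all 5 carrageenan arrays, from 0.76 to 2.37, but its 3 saline values ran from -0.71 to 4.83 and the difference was -0.09. Il11 feature 118 read 1.28, 1.21, 0.48 and 2.69 on carrageenan arrays 1 to 4 and -0.008 and 0.21 on saline arrays 3 and 4. Receptors for cytokines were split 3 to 2, with a median difference of 0.16 and no feature among the 10 with a small unadjusted p.

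Of the 78 comparable features, 68 had a gene symbol. Over all 78, 10 (12.8%) had an unadjusted limma p under 0.05, and 2 of these 10 had no symbol. Feature 62 was higher by 0.53 and feature 181 lower by 0.29 on the log2 scale in carrageenan, both with limma adjusted p-values of 0.381. Among 9 genes with several comparable features, Gabre, Pomc, Sstr2 and Tac1 had differences of 1 sign, while Adora2a, Adra2a, Gabbr1, Grin2d and Penk had features of opposite sign.

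As a description, the features measured mainly in carrageenan lay farther from 0 and varied more between arrays than the comparable ones. The median size of their mean was 0.85 against 0.38, and the median SD 1.11 against 0.59. These means rest on unlike numbers of arrays: 17 of the 77 had a ratio on all 5 carrageenan arrays, against 60 of the 78. Their sizes are therefore not compared on equal terms. Their means were below 0 in 41 of 77, whereas 53 of the 78 comparable features had a carrageenan mean above 0. Besides Oprd1, Gabra3 and Gabra6, only Vip and Il16 had a ratio on all 5 carrageenan arrays and on no saline array, and their means were 0.48 ± 1.04 and -0.27 ± 1.11 (SD).

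Against uninjected animals, the saline group had no feature past adjustment, 0 of 80 (0%), with a smallest limma adjusted p of 0.174 and 10 features at an unadjusted p under 0.05. The carrageenan count depended on the estimate of spread. When carrageenan and saline arrays shared that estimate over the 78 comparable features, 11 features differed from 0 in carrageenan by limma's adjusted p. Above 0 were Pdyn, Nts feature 184, Slc6a4 (the serotonin transporter), Slc6a13, Klk1b3, Ntsr1 and feature 62, and below 0 were Gabbr1 feature 76, Grik3 feature 88, Grin2d feature 167 and feature 181. Slc6a4 read 1.27, 1.14, 0.63 and 0.47 on carrageenan arrays 1, 2, 3 and 5 and 0.43, 0.32 and 0.69 on saline arrays 1, 3 and 4, all above 0. None of the 11 was called when carrageenan arrays alone set the spread.

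The RVM arrays, 5 after carrageenan and 4 after saline with the same injections, were used to ask whether the PAG differences were shared by its target. In 48 features measured on at least 3 arrays of all 4 groups, limma's interaction test called 0 (0%), with a smallest adjusted p of 0.0633 and 3 features at an unadjusted p under 0.05. The PAG and RVM differences had opposite signs in 28 of the 48. Gabbr1 feature 76 averaged -0.26 ± 0.30 after carrageenan and -1.08 ± 0.50 after saline in the RVM (SD, n = 4 each), a difference of 0.82 against -1.71 in the PAG. The difference between regions was -2.53 (95% interval -3.91 to -1.16, limma adjusted p = 0.0633). It passed 0.05 when at least 4 arrays per group were required, with array weights, and without PAG carrageenan array 1 or 5, PAG saline array 2 or RVM saline array 1. In other settings the smallest adjusted p of any feature was larger: 0.12 with all 6 groups in 1 fit, 0.176 with the replicate block, 0.293 after quantile normalization and 0.358 over features measured on every array.

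Htr4 and Tac1 feature 55 were the next features in that test. In the RVM, Htr4 averaged 0.05 ± 0.17 after carrageenan and 0.65 ± 0.59 after saline, and Tac1 feature 55 -0.07 ± 0.17 and 1.22 ± 1.18 (SD, n = 4 each). Both means were thus lower after carrageenan in the RVM and higher in the PAG. The differences between regions were 1.45 (95% interval 0.56 to 2.33, limma adjusted p = 0.0806) for Htr4 and 2.03 (0.68 to 3.38, 0.0959) for Tac1. Both passed 0.05 when at least 4 arrays per group were required, and Htr4 also without RVM saline array 1. Tacr2, Il11ra1 and Gabrq followed with limma adjusted p-values of 0.515.

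**Figure D5:**
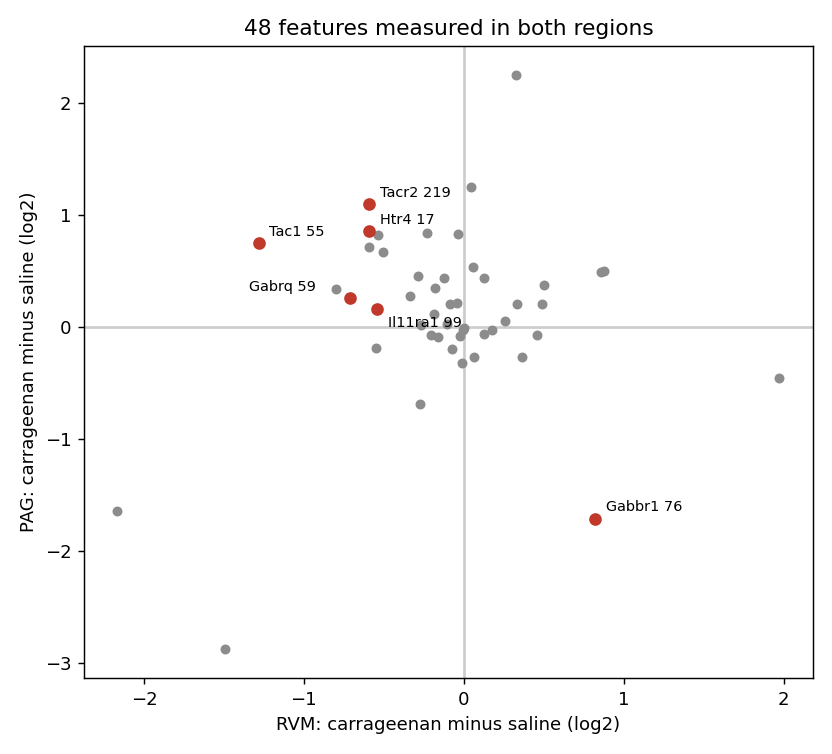
Carrageenan minus saline difference in mean log2 ratio in the PAG (vertical) against the RVM (horizontal) for 48 features, 1 point each; red points are the 6 with the smallest interaction p. Gabbr1 76 is at -1.71 in the PAG and 0.82 in the RVM, and the other 5 red points are above 0 in the PAG and below 0 in the RVM.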

How the data were processed

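The authors' deposited table gave 1 log2 ratio per feature and array, from 2-colour hybridisations (1 Alexa dye for injected and another for uninjected RNA, per the labels). Base 2 was inferred from the range of the values, -13.2 to 10.5; scanning, filtering and normalization are not given in the sources used here. Features were named from GEO's platform annotation, and the symbols were brought up to date with RefSeq's rat genes (GRCr8), which held 191 of 202. Values were used as deposited, exact zeros as missing. limma 3.58.1 in R 4.3.3 (lmFit, eBayes; two-sided, Benjamini-Hochberg, threshold 0.05) was run on the arrays of each comparison, without covariates, with at least 3 measured arrays per group, after tests on simulated data. The number of arrays limits the precision. Named features were the 20 smallest p-values, the 3 smallest of each of 13 gene lists, genes with several features, features of 1 group and the 6 smallest interaction p-values. The gene lists and comparisons were chosen with earlier results of these data known. Slc6a4, Penk feature 197, Tac1 feature 28, Gabbr1 features 34, 75 and 220, Nts features 182 and 183, Grin3b, Slc6a2 feature 204, Htr2a, Htr5a and, in the plot by gene group, Hrh1 were named after their values were seen. So was Hrh3 feature 9.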

Additional observations from a re-analysis of the deposited data

Results flagged for a closer look

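In groups of 4 or 5 arrays, 18 values lay far from the rest of their group by Dixon's test, out of 112 groups tested; chance flags about 1 in 20. Carrageenan array 4 held 5 of them: Tacr2 (3.71), Il1b (3.08), Ngfr (1.97), Il11ra1 (1.46) and Adra2c (1.35). Carrageenan array 5 held 4: Adora2a feature 23 (3.90), Ntf3 (3.54), Sstr1 feature 212 (3.08) and Adrb3 (2.5). Array 2 was far off on the unnamed feature 4 (4.61) and array 3 on Gabra6 (-5.92). In saline, array 2 stood out on Gabre feature 74 (5.40) and Ntf3 (0.24), array 4 on Ngfr (-0.93), Il10ra (-0.84) and Adra2c (-0.29), and array 5 on Grin2d feature 167 (0.051) and in its number of measured features (33). No cause was tested.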

How the results depend on the processing

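No adjusted call of carrageenan against saline appeared with any 1 array left out (0 to 0). Zeros kept as 0 gave 1 (Oprd1, limma adjusted p = 0.00279). No saline array measured that feature, so its carrageenan ratios were set against zeros alone, which is no comparison with measured saline values. All 6 groups in 1 fit gave 1 (Slc6a13). Zeros kept as 0 also moved the median difference to 0.029 and the interaction calls to 6; at least 4 arrays per group gave 3 interaction calls, array weights 1, and leaving out 1 array 0 to 2. The carrageenan call against uninjected became 0 under quantile normalization and with any 1 carrageenan array left out (0 to 0), and 11 in the fit of all 6 groups and in that of both PAG groups, the latter added after the data were seen. Saline calls were 2 over features measured on every array and 1 with all 6 groups. The difference in array SD ran from 0.50 to 0.85 with 1 array left out, with the exact permutation p above 0.05 without carrageenan array 2, 3 or 5 or saline array 1, 3, 4 or 5. Replicate numbers are shared by the groups. Deviations of same-numbered arrays had r = -0.07, 0.45, -0.26, 0.20 and -0.16. Those of unlike-numbered arrays ran from -0.40 to 0.31, so number 2 had the highest value of all. With the number as a block, 0 features were called. The 68 more measured features then had p = 0.0625 by exact sign flips. That is the smallest value this test can give with 5 pairs, so it could not reach 0.05.

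These differences changed sign. With zeros kept: Il13 0.47. With median centring: Sstr2 feature 213 -0.016. With quantile normalization: Gabbr1 feature 36 0.16, Gabre feature 74 0.13, Il11ra1 -0.19, Il13 0.72, Grin2d feature 167 0.036, Nts -0.047, Pdyn -0.33, Sstr2 -0.95 (feature 201) and -0.063 (feature 213), and Il6 in saline 0.049. With array weights: Gabre feature 74 0.43, Il11ra1 -0.0011, Il13 0.91, Penk feature 196 0.011, Sstr2 feature 201 -0.029 and Il6 in saline 0.0053. With the replicate block: Adora2a feature 23 -0.25, Gabbr1 feature 37 -0.023, Il13 0.17 and Sstr2 feature 201 -0.029.

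With 1 array left out at a time, these also crossed 0 between carrageenan and saline: Adora2a feature 23 (-0.31 to 0.695), Gabbr1 feature 36 (-0.29 to 0.041), Gabre feature 74 (-0.95 to 1.08), Cckbr (-0.14 to 1.03), Tac1 feature 79 (-0.006 to 0.65), Il11ra1 (-0.14 to 0.25), Il13 (-0.35 to 0.0502), Grm6 (-0.82 to 0.038), Penk feature 196 (-0.25 to 0.087), Sstr2 feature 201 (-0.15 to 0.21) and feature 213 (-0.0698 to 0.10). In carrageenan against uninjected so did Il16 (-0.57 to 0.18), Sstr1 feature 212 (-0.24 to 0.65), Ntrk3 feature 223 (-0.35 to 0.37) and Vipr1 (-0.059 to 0.81). The cause was not tested.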
